A study of Mus musculus with 40 samples.

Results

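The effect of deleting AF-1, a transactivation region of the estrogen receptor ERα, was examined in cortical bone of mice treated with 17β-estradiol (E2). The comparison set 5 arrays of AF-1-deleted mice under E2 (KO E2) against 5 arrays of wild-type mice under E2 (WT E2), 10 arrays of 40 in the series, chosen by the source label of each sample. All mice were 15-week-old C57BL/6 females that had been ovariectomized, and 1 week later were given a subcutaneous dose of E2 (115 µg/kg) or of the olive oil vehicle. RNA was taken 18 h after the injection. KO mice are labelled as having a deletion of AF-1 in ERα, and WT mice carry the intact receptor. The cortical groups under vehicle, 5 arrays of KO mice and 5 of WT mice, entered the same fit, and the vertebral bodies L5 and L6 of mice treated in the same ways, labelled trabecular bone, served for comparison. The cortical RNA came from flushed shafts of long bones, which the protocol names as femora and tibiae and the sample characteristics as femur. In the labels nothing says that the arrays of a group are separate animals, or whether shafts and vertebrae came from the same mice, so a p-value here weighs a difference only against array-to-array spread, part of which may be technical. The deletion is not described as limited to bone, so a difference in bone RNA need not arise in bone cells alone.

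ERα is a nuclear receptor that binds DNA after it has bound estradiol and then recruits coactivators through transactivation regions. AF-1, for activation function 1, lies in the N-terminal part and acts without a ligand or together with the ligand-dependent AF-2 of the C-terminal domain. In bone, estrogen slows resorption and preserves cortical and trabecular mass, and ERα is present in osteoblasts, osteocytes, osteoclasts and their precursors. The question was which transcripts differ between KO and WT shafts when both genotypes have received E2.

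Levels are log2 intensities after background correction and quantile normalization, and each list of 5 values runs from BeadChip 1 to BeadChip 5, since every BeadChip (a slide of 8 arrays) held 1 array of each group. A probe was counted as detected on an array at a detection p under 0.01. Differences are KO minus WT with the standard error of a limma fit on the 20 cortical arrays, and a gene was called at a Benjamini-Hochberg adjusted p under 0.05. On BeadChip 1 the vehicle shafts had 9880 (KO) and 9901 (WT) probes detected and the vertebral arrays 8052 to 9218. These were fewer than on the other arrays of their groups. Between the 2 groups compared, array depth was alike: 10541 to 11108 probes were detected in KO E2 shafts and 10324 to 11435 in WT E2 shafts. Bone markers were present in both groups: 16 of 20 listed osteoblast markers passed the filter on dim probes (detected on at least 5 of the 20 arrays), and osteocalcin (Bglap2) averaged 14.95 ± 0.09 in KO E2 shafts and 14.88 ± 0.05 in WT E2 shafts (SD, n = 5 each). Of 15 osteocyte markers, 11 passed. Esr1, the gene of ERα, had levels of 7.82, 8.07, 7.83, 8.10 and 8.31 in KO E2 shafts and 7.94, 8.07, 8.02, 8.02 and 8.23 in WT E2 shafts. That probe does not check the genotype, because its position relative to the deleted part was not known. In bulk tissue, fewer cells of a type and less RNA per cell cannot be told apart.

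Of 9096 genes tested, 2 were called (0.022%), and both were lower in KO E2 shafts: Plppr5 and Aldh1a2. Plppr5 encodes a membrane protein of the phospholipid phosphatase-related family, known from neurons, where it promotes outgrowth of membrane protrusions. Aldh1a2 encodes retinaldehyde dehydrogenase 2, which makes retinoic acid, the ligand of the retinoic acid receptors. Both transcripts were detected on all 5 WT E2 arrays and on 0 of 5 KO E2 arrays. No gene was called higher in KO E2 shafts. Among the 188 genes with an unadjusted p under 0.05 (2.07%), 139 were lower in KO E2 shafts (1.53%) and 49 were higher (0.539%), while differences below 0 made up 51.2% of all genes tested and the median difference of all genes was -0.00.

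The start regions of these 2 genes are shown because ERα can bind an inverted repeat, the estrogen response element, or its half-site beside other factors. The sequences are from RefSeq (GRCm38.p6) and run on the plus strand, which is the strand of both genes, from 250 bases before to 50 bases after an annotated start. Capitals mark the half-site GGTCA on either strand. The Plppr5 window is chr3:117574977-117575276 and the Aldh1a2 window chr9:71215539-71215838. The annotated genes span chr3:117574608-117689508 for Plppr5 and chr9:71215789-71296243 for Aldh1a2. The Plppr5 window, with its half-site, thus lies wholly inside the annotated gene, around a start downstream of the gene's first base.
Plppr5: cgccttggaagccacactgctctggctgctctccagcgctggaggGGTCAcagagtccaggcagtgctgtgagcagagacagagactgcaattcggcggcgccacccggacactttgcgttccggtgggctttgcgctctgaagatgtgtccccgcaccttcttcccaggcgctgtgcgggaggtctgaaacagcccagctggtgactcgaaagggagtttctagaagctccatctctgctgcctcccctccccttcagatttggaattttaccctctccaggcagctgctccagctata
Aldh1a2: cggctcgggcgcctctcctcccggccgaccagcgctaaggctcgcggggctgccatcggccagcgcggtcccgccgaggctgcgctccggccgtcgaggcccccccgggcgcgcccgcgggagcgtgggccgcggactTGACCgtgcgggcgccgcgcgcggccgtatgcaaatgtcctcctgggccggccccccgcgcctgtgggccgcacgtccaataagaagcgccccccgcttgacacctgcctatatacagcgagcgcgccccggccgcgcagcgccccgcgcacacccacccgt
Each window held 1 half-site, on the gene's own strand in Plppr5 and on the opposite strand in Aldh1a2. The half-site is common: 40.5% of all 32851 promoter windows in the table held at least 1, and 38.5% of the windows of the genes tested that had an entry (7008 of 9096). The full element, GGTCA followed after any 3 bases by TGACC and so containing the half-site on each strand, was in neither window and in 0.07% of all windows. A match is a description of letters and not of receptor binding.

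Plppr5 had levels of 5.75, 6.16, 5.81, 5.54 and 5.43 in KO E2 shafts and 7.74, 7.51, 7.90, 7.31 and 8.71 in WT E2 shafts. The 2 groups did not overlap, and the KO array was the lower on each of the 5 BeadChips, with differences of -3.27 to -1.35. The fitted difference was -2.10 ± 0.24 (limma, adjusted p = 0.000304). Since every KO E2 array was not well above background, the fold is a bound. This bound and the later ones hold for group means of background-corrected values, with no allowance for array-to-array spread. On average Plppr5 was at least 2.54-fold lower in KO E2 shafts, taking for each KO array the lowest level among probes detected on it. Under vehicle it was detected on 0 arrays of either genotype, with means of 5.36 ± 0.12 in KO shafts and 5.66 ± 0.50 in WT shafts (SD, n = 5 each). The WT E2 group was thus the only one of the 4 cortical groups in which the transcript was detected.

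A second probe of Plppr5, not used in the fit, was detected on 0 KO E2 and 3 WT E2 arrays, with a difference of -1.38. In the vertebrae the transcript was detected on 0 KO E2 and 0 WT E2 arrays, with means of 5.11 ± 0.16 in KO and 5.43 ± 0.53 in WT (SD, n = 5 each), so it was not tested in the fit on vertebral arrays alone. In a fit over all 40 arrays the KO minus WT difference under E2 was more negative in shafts than in vertebrae by 1.78 ± 0.31 (limma, adjusted p = 0.0141), 1 call among 9451 genes (0.0106%). This call was absent in 12 of the 16 alternatives run for it. They include the fit on probes detected on all arrays, which could not test Plppr5. The difference between the genotype effects under E2 and under vehicle in shafts was -1.80 ± 0.34, with an unadjusted p of 3.85e-05 and an adjusted p of 0.350 (limma), and was not called in the fit on cortical arrays. In the fit over all 40 arrays it was -1.80 ± 0.31 (limma, adjusted p = 0.0117), the only call there. Both contrasts set the WT E2 shaft arrays against groups in which no array detected Plppr5. In the cortical fit Plppr5 passed the filter only through those WT E2 arrays, so these calls are no separate support.

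Aldh1a2 had levels of 5.23, 6.11, 6.35, 6.08 and 5.16 in KO E2 shafts and 7.55, 7.67, 7.41, 8.30 and 9.02 in WT E2 shafts. Again the groups did not overlap, and every BeadChip had the KO array lower, with differences of -3.86 to -1.06. The fitted difference was -2.20 ± 0.29 (limma, adjusted p = 0.00144), and as a bound the transcript was at least 2.83-fold lower in KO E2 shafts. Its second probe, detected on 0 KO E2 and 4 WT E2 arrays, gave -1.64. Under vehicle Aldh1a2 was detected on 0 KO and 2 WT arrays, with a difference of -0.58 that was not called. In vertebrae under E2 it was detected on 0 KO and 4 WT arrays, with a difference of -1.55 ± 0.37 (limma, adjusted p = 0.298). The shaft and vertebral differences were not shown to differ (-0.65 ± 0.49, limma, adjusted p = 1.00). Of 16 listed genes of retinoic acid synthesis and response, only 4 passed the filter on dim probes, so the pathway around Aldh1a2 was hardly measured; apart from Aldh1a2, none of the other 3 had an unadjusted p under 0.05.

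**Figure D1:**
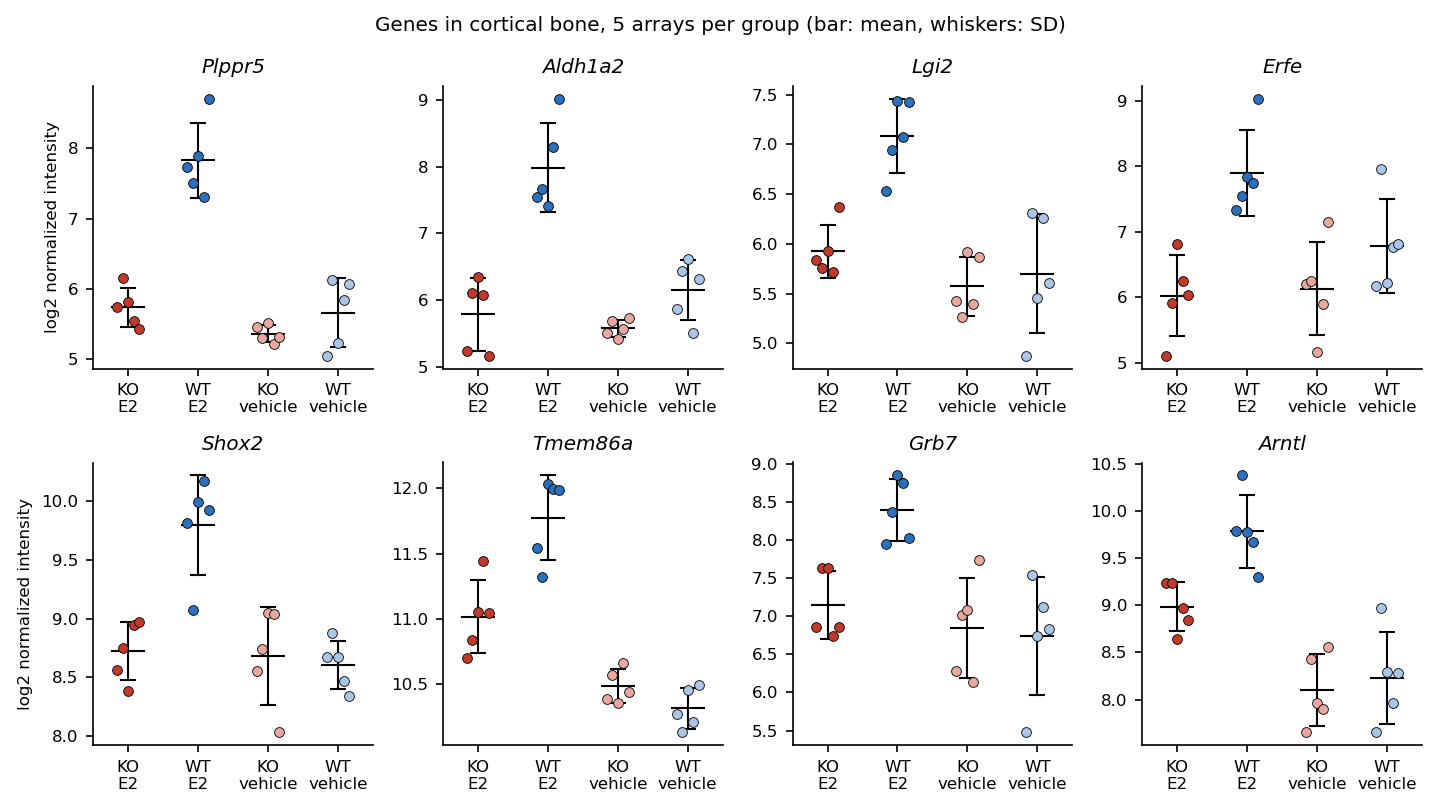
Log2 normalized intensity of 8 genes on each cortical array, with KO E2, WT E2, KO vehicle and WT vehicle from left to right, 5 arrays each, the mean as a bar and the SD as whiskers. Plppr5 and Aldh1a2 are the called genes, and all their KO E2 arrays lie below their WT E2 arrays (for Plppr5, 5.43 to 6.16 in KO E2 shafts and 7.31 to 8.71 in WT E2 shafts).

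Both transcripts were dim, and the calls changed with the handling of dim probes. Without background correction the differences shrank to -0.85 for Plppr5 and -0.95 for Aldh1a2, and both were still called. Where only probes detected on all 20 cortical arrays were kept, neither gene could be tested, and no gene was called. When 1 BeadChip or 1 WT E2 array was left out, Plppr5 no longer reached the 5 detected arrays the filter asks for and was not tested, and Aldh1a2 had adjusted p-values of 0.0678, 0.0468, 0.00685, 0.0538 and 0.0617 without BeadChips 1 to 5 in turn. With the probes of all 20 arrays kept, a choice made after seeing the data, both genes were called without each BeadChip in turn and without each single array of the 2 groups. Those probes were chosen with the arrays later left out. Plppr5 is among them only through the WT E2 arrays, so these calls are no separate support. Keeping Plppr5 also changes the adjustment for Aldh1a2, whose adjusted p was then 0.0342, 0.0274 and 0.0315 (limma) without BeadChips 1, 4 and 5.

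Next to these 2 genes, the naming rule took the 10 genes with the smallest p in each direction that were not called. Among the lower ones, 5 shared an adjusted p of 0.176 (limma): Shox2, Tgm1, Erfe, Tmem86a and Lgi2. Shox2, a homeobox transcription factor of limb development, had levels of 8.56, 8.75, 8.39, 8.95 and 8.97 in KO E2 shafts and 9.81, 9.08, 9.997, 10.17 and 9.92 in WT E2 shafts, with a difference of -1.07 ± 0.21 and no overlap. Tmem86a, a lysoplasmalogenase that splits ether lipids, was the brightest of the 5, at 10.70, 10.84, 11.05, 11.44 and 11.04 in KO E2 shafts and 11.54, 11.32, 12.03, 11.99 and 11.99 in WT E2 shafts, a difference of -0.76 ± 0.16. The highest KO E2 array of Tmem86a lay above the lowest WT E2 array, although the KO array was the lower on each BeadChip.

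Erfe, the erythroblast hormone erythroferrone that lowers hepcidin, had levels of 5.11, 5.91, 6.81, 6.25 and 6.04 in KO E2 shafts and 7.32, 7.55, 7.83, 7.75 and 9.03 in WT E2 shafts. It was detected on 1 KO E2 and 5 WT E2 arrays, its difference was -1.87 ± 0.39, and the groups did not overlap. The erythroid list it might be read beside, 16 measured markers of red cell precursors and heme synthesis, had a median difference of -0.08 with 0 members at an unadjusted p under 0.05. Lgi2, a secreted leucine-rich repeat protein known from neurons, was detected on 0 KO E2 and 5 WT E2 arrays, at 5.84, 5.76, 5.93, 5.72 and 6.37 in KO E2 shafts and 6.53, 6.94, 7.44, 7.07 and 7.42 in WT E2 shafts. Its bound is at least 1.51-fold lower in KO E2 shafts, beside a fitted difference of -1.16 ± 0.25 that was not called. Tgm1, a transglutaminase known from the cornified envelope of skin, differed by -0.93 ± 0.19, with 1 KO E2 and 5 WT E2 arrays detected.

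The other 5 of the lower genes had adjusted p-values from 0.451 to 1.00 (limma). They were Fcrls (-1.09 ± 0.26), an Fc receptor-like gene known as a mouse microglia marker, Ccn5 (-0.78 ± 0.20), a matricellular protein also known as Wisp2, Fam78b (-1.08 ± 0.28), the receptor tyrosine kinase adaptor Grb7 (-1.24 ± 0.35) and the stereocilia scaffold Whrn (-1.0 ± 0.28). All 10 lay below the WT array on each of the 5 BeadChips, a pattern seen in 3.33% of all genes tested. Complete separation of the 2 groups with KO lower was seen in 23 genes (0.253%), which include Plppr5, Aldh1a2, Shox2, Tgm1, Erfe, Lgi2, Fcrls and Grb7. These genes were picked by their p in this same contrast, so the counts describe them and support nothing.

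The 10 genes with the smallest p on the higher side had adjusted p-values from 0.550 to 1.00 (limma). Cyp4b1, a cytochrome P450 of fatty acid hydroxylation, had levels of 7.87, 7.67, 7.71, 7.30 and 7.63 in KO E2 shafts and 6.95, 7.05, 7.16, 7.18 and 7.07 in WT E2 shafts, a difference of 0.56 ± 0.14 with no overlap. Abat, the transaminase that breaks down GABA, had a difference of 0.69 ± 0.19, and Cxadr, a cell adhesion protein and virus receptor, of 0.63 ± 0.22, both without overlap. An unused probe of Cxadr, detected on 2 KO E2 and 1 WT E2 arrays, gave -0.22. That of Abat, detected on 1 KO E2 and 0 WT E2 arrays, gave 0.51. Ebf3, a transcription factor of marrow stromal cells, had 0.73 ± 0.21, and the chemokine Cxcl14 had 0.70 ± 0.25. The remaining 5 were BC020535 (0.56), the GABP subunit gene Gabpb2 (0.92), Gm7609 (1.35), the vesicle membrane protein gene Scamp3 (0.56) and Ms4a8a (0.82). Gabpb2 was detected on 5 KO E2 and 1 WT E2 arrays, and Ms4a8a on 4 KO E2 and 1 WT E2 arrays. Separation with KO higher was seen in 7 genes (0.077%).

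**Figure D2:**
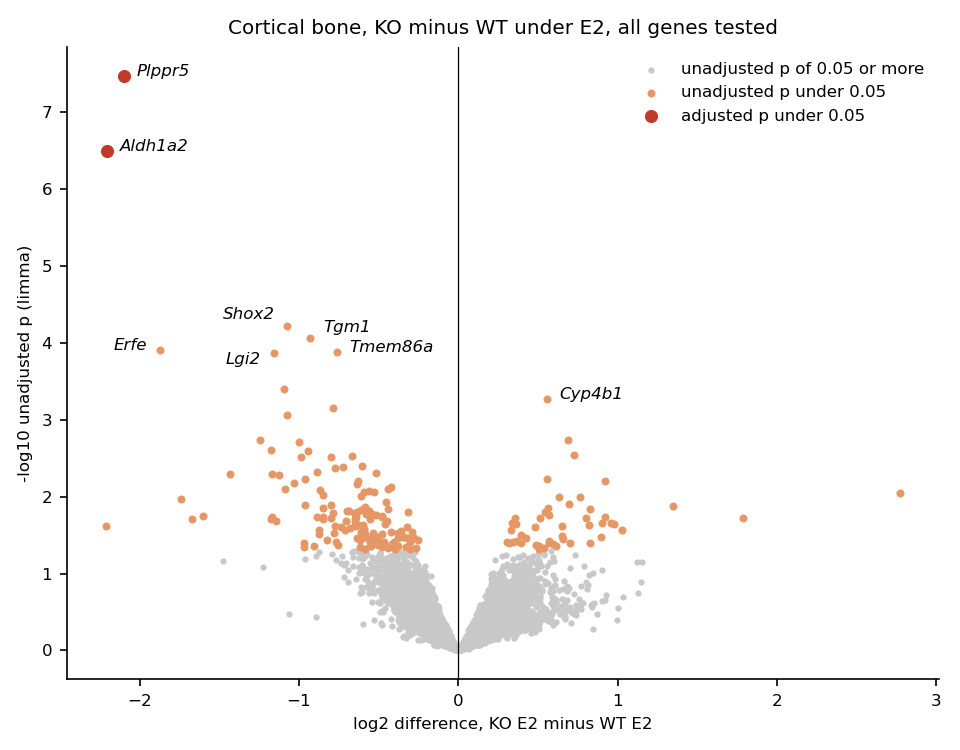
Log2 difference of KO E2 minus WT E2 in cortical bone on the x axis and -log10 of the unadjusted p from limma on the y axis, with 1 point for each of the 9096 genes tested. The 2 called genes, Plppr5 and Aldh1a2, lie on the left, and more of the points with an unadjusted p under 0.05 lie left of 0 (139) than right of it (49).

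Genes called for E2 form the next group. In WT vertebrae 18 of 8693 genes were called for E2 minus vehicle (0.207%), 17 of them higher with E2 (0.196%), from arrays that do not enter the cortical comparison. In KO E2 shafts all 17 lay below WT E2 shafts by the brightest kept probe of each gene. Their median difference was -0.65, with a range of -1.67 to -0.13, against a median of -0.00 and 51.2% below 0 over all genes. Of the 17, 10 had an unadjusted p under 0.05 (1.53% of all genes on this side), 12 lay below on all 5 BeadChips (3.33%) and 2 were separated completely (0.253%), and none was called. Under vehicle 9 of the 17 lay below 0 in KO shafts (47.5% of all genes did), with a median of -0.01. The difference between the genotype effects under E2 and vehicle had a median of -0.47 over the 17 genes, and none of them was called for it. A smaller E2 response in KO bone was known from these data when the list was chosen, so this pattern is no independent support.

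By role, the 17 genes include 2 transcription factors, Shox2 and Foxc1, a forkhead factor of skeletal and vascular development, which had a difference of -0.39 ± 0.31. Vldlr, the receptor of very low density lipoprotein, had levels of 11.70, 11.57, 10.92, 10.98 and 12.02 in KO E2 shafts and 12.11, 12.10, 11.81, 11.67 and 12.75 in WT E2 shafts, a difference of -0.65 ± 0.25 with the KO array lower on each BeadChip. Ghr, the growth hormone receptor, was closest to 0 at -0.13 ± 0.26. Loxl1, an enzyme that cross-links elastin and collagen, differed by -0.61 ± 0.19, the potassium channel genes Kcnk1 and Kcnk2 by -0.69 ± 0.39 and -0.47 ± 0.47, and the adaptor Grb7 by the -1.24 given above. Rasl11a, a small GTPase-like protein, had -0.71 ± 0.28, Tex2, a lipid-binding membrane protein, -0.45 ± 0.16, Bicc1, an RNA-binding protein, -0.38 ± 0.21, and Insc, an adaptor of spindle orientation, -0.46 ± 0.24. Gdpd2, a glycerophosphodiester phosphodiesterase known from osteoblasts, had -0.27 ± 0.30. Second probes of Gdpd2 and Ghr, not used in the fit, lay above 0, at 0.095 and 0.014. Unused probes of Shox2, Fam78b, Cartpt, Tex2 and Vldlr that were detected lay below 0.

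Myl10, a myosin light chain, is given with its levels under vehicle. It had 8.57, 8.54, 8.03, 8.43 and 8.14 in KO E2 shafts and 8.84, 7.99, 10.27, 9.74 and 9.0 in WT E2 shafts, a difference of -0.83 ± 0.37. Its means under vehicle were 6.17 ± 0.73 in KO shafts and 6.61 ± 0.47 in WT shafts (SD, n = 5 each). Both E2 means therefore lay above both vehicle means, and the 2 genotypes overlapped within each treatment. Averaged over the 17 genes, Myl10 included, the level was 9.27 in KO E2 and 9.97 in WT E2 shafts, against 8.92 in KO and 8.82 in WT shafts under vehicle. The average thus had the same order, which does not show it for any other single gene.

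Cartpt, the precursor of the neuropeptide CART, was the most variable of the 17. Its levels were 5.06, 6.76, 5.28, 6.34 and 7.82 in KO E2 shafts and 7.68, 7.93, 9.29, 7.17 and 7.56 in WT E2 shafts, with a difference of -1.67 ± 0.66. Under vehicle the order was the opposite, at 9.51, 7.92, 10.05, 9.52 and 6.29 in KO shafts and 7.35, 5.05, 5.20, 5.01 and 6.04 in WT shafts, a difference of 2.93. The difference between these genotype effects was -4.60 (limma, adjusted p = 0.368) and was not called, although it was in 2 alternatives, with array quality weights and without BeadChip 5.

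**Figure D3:**
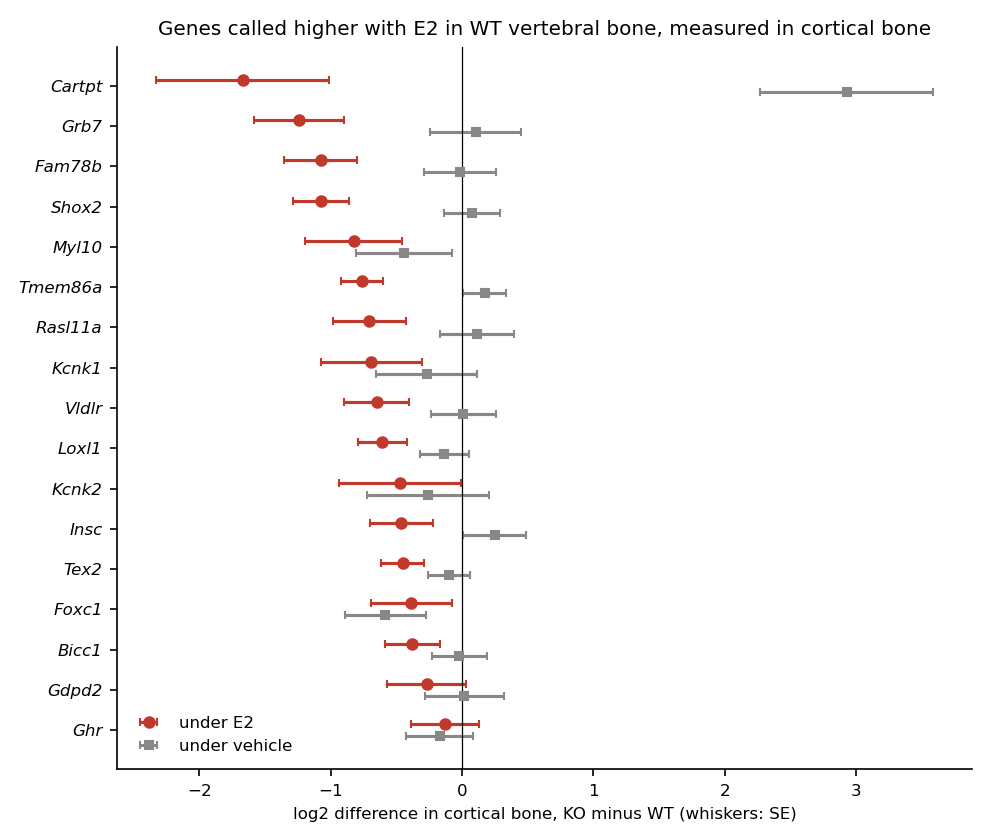
Difference of KO minus WT in cortical bone, on the log2 scale, for the 17 genes called higher with E2 in WT vertebrae, with circles for the E2 groups, squares for the vehicle groups and SE as whiskers. All 17 circles lie left of 0, from -1.67 to -0.13, and 9 of the squares do.

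In WT shafts themselves 13 genes were called for E2 minus vehicle (0.143% of genes), 12 of them higher with E2 (0.132%), and 5 of these 12 were also among the 17 of the vertebrae, which is 41.7% of the shaft list and 29.4% of the vertebral list. That choice used the same WT E2 arrays as the KO minus WT comparison, so a gene high by error on those arrays would lie lower in KO in both. All 12 lay below 0, with a median of -0.81. They include the clock factor Arntl, the histone genes H4c2 (-0.77 ± 0.24) and H1f5 (-0.77 ± 0.40) and the matrix protein gene Spon2 (-0.61 ± 0.35). H4c2 was dim, detected on 1 KO E2 and 4 WT E2 arrays. In KO shafts 0 genes were called for E2 minus vehicle, with 318 at an unadjusted p under 0.05 (3.5%). For the 2 genes called between the genotypes, E2 minus vehicle was 0.38 ± 0.24 in KO shafts and 2.17 ± 0.24 in WT shafts for Plppr5, and 0.21 ± 0.29 in KO shafts and 1.84 ± 0.29 in WT shafts for Aldh1a2. These values share the E2 arrays with the KO minus WT differences.

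In vertebrae under E2, 3 of 8693 genes were called between the genotypes (0.0345%), all lower in KO: Shox2, Tmem86a and Vldlr. Shox2 had levels of 6.06, 5.48, 5.27, 5.69 and 5.37 in KO E2 vertebrae, where no array detected it, and 7.97, 7.96, 7.73, 7.64 and 7.57 in WT E2 vertebrae, a difference of -2.20 ± 0.22 (limma, adjusted p = 2.25e-05). As a bound, Shox2 was at least 2.26-fold lower in KO E2 vertebrae. With the BeadChip as a replicate block 3 genes were called, Shox2 with Ccn5 and Myl10, while Tmem86a and Vldlr had adjusted p-values of 0.0599 and 0.0596 (limma). Without BeadChip 1, whose vertebral arrays detected the fewest probes, 11 vertebral genes were called, 2 of them higher in KO. Aldh1a2, Tmem86a and Vldlr were among the 11, and Shox2 was not. As no KO E2 vertebral array detected Shox2, it may have fallen below the filter there and not been tested. In shafts the difference of Shox2 was -1.07, and the contrast of the bones, which rests on the undetected KO E2 vertebral values, was not called (limma, adjusted p = 1.00). For Tmem86a the vertebral difference was -1.03 ± 0.17 (limma, adjusted p = 0.0249), and the bones differed by 0.27 ± 0.23. Over the 17 genes the median vertebral difference was -0.83, but those genes were chosen with the same WT E2 vertebral arrays.

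Without E2, no gene was called between KO and WT shafts, and 256 of 9096 had an unadjusted p under 0.05 (2.81%), 119 lower in KO (1.31%) and 137 higher (1.51%). A test of the genotype difference under E2 against that under vehicle called 0 genes, with 212 at an unadjusted p under 0.05 (2.33%). In alternatives of that test 1 gene was called: Plppr5 in the fit over all 40 arrays, and Cartpt with array quality weights and without BeadChip 5.

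Bone-forming and bone-resorbing lists came next, each described by its counts and median. None of their measured members was called. Of 16 osteoblast markers, 12 lay below 0 in KO E2 shafts, with a median of -0.20, and Phospho1, a phosphatase of matrix vesicles, had the smallest p with -0.64 ± 0.28. Ibsp, bone sialoprotein, was at 13.23 ± 0.33 in KO E2 shafts and 13.62 ± 0.25 in WT E2 shafts (SD, n = 5 each), with a difference of -0.38 ± 0.20. The 3 osteocalcin genes, near-identical copies whose probes may share signal, were near 0: Bglap1 had 0.03 ± 0.12, Bglap2 had 0.07 ± 0.11 and Bglap3 had -0.21 ± 0.11. Runx2, the master regulator of osteoblasts, was detected on 0 of the 10 arrays and was not tested.

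Of 11 osteocyte markers, 10 lay below 0, with a median of -0.45 and with a median below 0 on each of the 5 BeadChips. Sost, the Wnt inhibitor sclerostin, had levels of 7.78, 8.61, 7.78, 8.53 and 8.83 in KO E2 shafts and 8.56, 8.72, 9.25, 8.83 and 9.70 in WT E2 shafts. Each KO array lay below the WT array of its BeadChip, but the groups overlapped and the difference of -0.70 ± 0.37 was not called (unadjusted p 0.072, limma). Dkk1, another secreted Wnt inhibitor, had -0.55 ± 0.26, and Phex, the phosphate-regulating endopeptidase of osteocytes, had -0.38. Under vehicle the median of the osteocyte list was -0.04 and 9 of the 11 lay below 0.

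Osteoclast markers showed no side: 6 of 12 lay below 0, with a median of 0.00 and a range of -0.32 to 0.24. Among 10 measured genes of RANKL, osteoprotegerin and cytokines that regulate osteoclasts, 6 lay below 0. RANKL (Tnfsf11), the signal for osteoclast formation, averaged 7.17 ± 0.69 in KO E2 shafts and 7.20 ± 0.44 in WT E2 shafts (SD, n = 5 each). Its decoy receptor osteoprotegerin (Tnfrsf11b) had 9.83, 10.01, 8.55, 9.95 and 11.23 in KO E2 shafts and 10.41, 10.56, 10.11, 10.48 and 11.63 in WT E2 shafts. The KO array was the lower on each BeadChip, with a difference of -0.73 ± 0.36 that was not called.

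Of 21 measured genes of the Wnt pathway, which promotes bone formation, 17 lay below 0 in KO E2 shafts, with a median of -0.31, against 10 of 21 and a median of 0.04 under vehicle. Members at an unadjusted p under 0.05 were 5 on the lower side and 1 on the higher side, where 1.53% and 0.539% of all genes lay. The ligand gene Wnt4 had levels of 7.71, 6.93, 7.46, 6.63 and 8.33 in KO E2 shafts and 7.76, 7.57, 8.66, 8.16 and 8.89 in WT E2 shafts, a difference of -0.80 ± 0.31. Rspo3, a secreted enhancer of Wnt signalling, differed by -0.65 ± 0.25, the secreted Wnt modulator Sfrp2 by -0.96 ± 0.31, and Ccn5 and Dkk1 as given above. Sfrp1, a secreted inhibitor named outside the rule because it is the 1 gene on the other side, had a difference of 0.82 ± 0.33. Its probe was dim, detected on 4 KO E2 and 1 WT E2 arrays. The members that lay lower thus include both activators and inhibitors of the pathway.

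Matrix genes followed: 25 of 31 collagens and matrix genes lay below 0, with a median of -0.15, and 20 of the 31 did under vehicle, with a median of -0.11. Thbs1, thrombospondin 1, had 8.15, 7.56, 8.23, 7.16 and 8.42 in KO E2 shafts and 8.99, 8.46, 8.37, 9.23 and 9.62 in WT E2 shafts, a difference of -1.03 ± 0.34, with the KO array lower on each BeadChip. Col6a2, a chain of collagen VI, had -0.85 ± 0.31. The 4 members at an unadjusted p under 0.05 were these 2, Loxl1 and the lysyl oxidase Lox (-0.59 ± 0.25), the last named outside the rule. In the TGF-beta and BMP list 15 of 22 lay below 0, with a median of -0.08 and the binding protein gene Ltbp1 at -0.54 ± 0.21. The growth hormone and IGF list was near balance, 6 of 13 below 0, with the signalling inhibitor Socs2 at -0.58 ± 0.22.

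The clock genes lay mostly on the other side: 12 of 13 measured genes were above 0 in KO E2 shafts, with a median of 0.18, and the exception was Arntl. None of the 12 had an unadjusted p under 0.05. The SD of the 5 BeadChip medians of this list was 0.29, larger than its median, and 2 of the 5 were below 0. Arntl, which encodes BMAL1, the activator that drives Per genes, had levels of 9.23, 9.24, 8.64, 8.97 and 8.84 in KO E2 shafts and 9.78, 10.38, 9.78, 9.67 and 9.30 in WT E2 shafts. The groups did not overlap, and the difference was -0.80 ± 0.24 (unadjusted p 0.0031 and adjusted p 1.00, limma). Per2, a repressor of the clock, had 9.68 ± 0.55 in KO E2 shafts and 9.33 ± 0.51 in WT E2 shafts (SD, n = 5 each). Ciart, another repressor, had a difference of 0.68 and was detected on 3 KO E2 and 1 WT E2 arrays. Under vehicle 4 of the 13 clock genes lay below 0, with a median of 0.06, so most lay above 0 there too. Arntl differed by -0.13 and Per2 by -0.45 under vehicle. The time of day of sampling was not in the labels, and its part in these values was not tested.

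Genes of the replication-dependent histones, which are made in S phase, lay lower in 18 of 20 cases, with a median of -0.50, while under vehicle 4 of 20 lay below 0 and the median was 0.21. Those at an unadjusted p under 0.05 were H4c2, H2bc3 (-0.96 ± 0.35), H3c4 (-0.78 ± 0.33) and, named outside the rule, H4c4 (-0.87 ± 0.38). BeadChip 2 went the other way for H2bc3, with 8.43 in the KO E2 array and 7.90 in the WT E2 array, against 6.4, 6.66, 6.94 and 6.95 on the other KO E2 arrays and 8.47, 8.37, 7.05 and 8.42 on the other WT E2 arrays. The SD of the 5 BeadChip medians of this list was 0.54, larger than its median. Of the genes of the mitotic cell cycle, 11 of 23 lay below 0, with a median of 0.01. Histone genes are similar in sequence, and their probes may share signal.

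**Figure D4:**
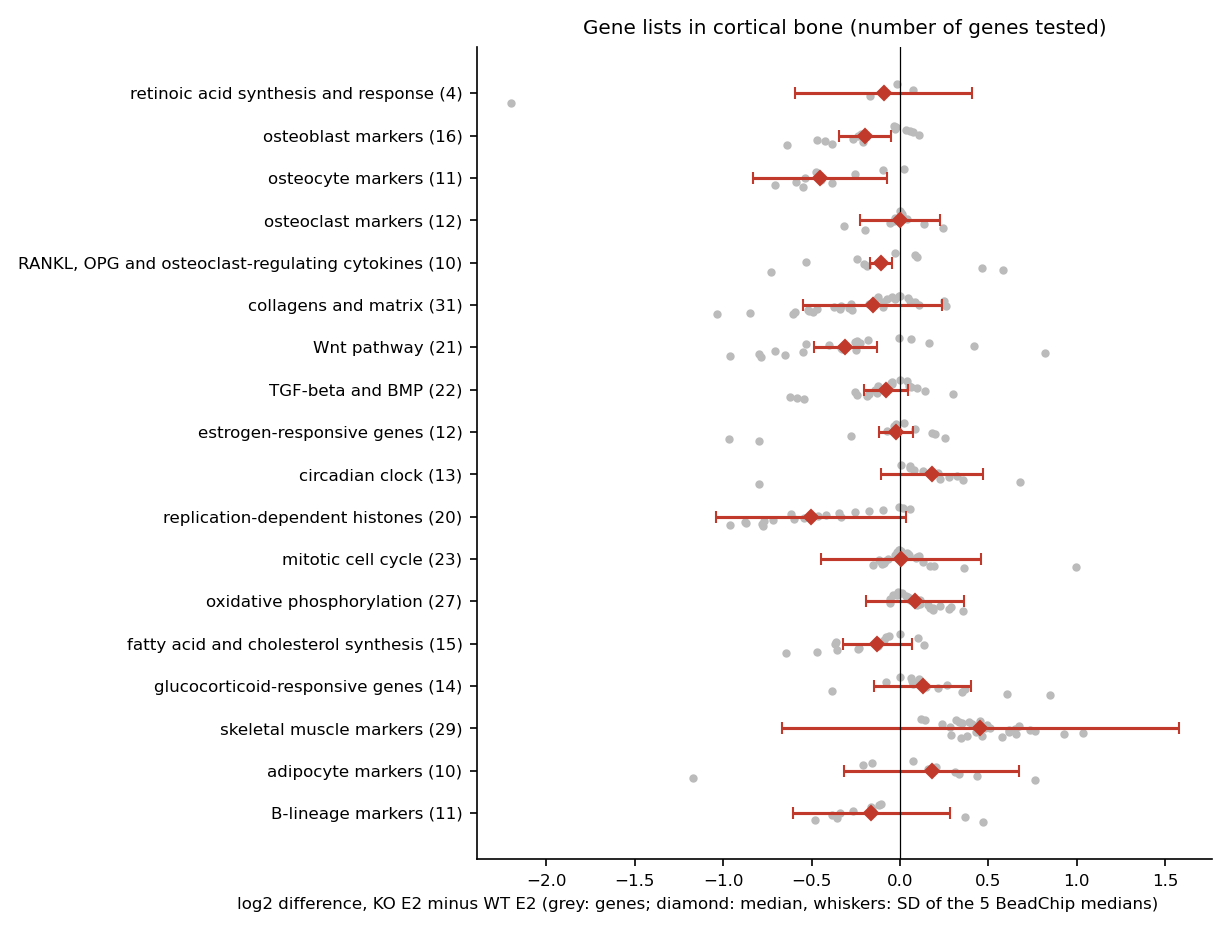
Log2 difference of KO E2 minus WT E2 for the measured genes of 18 lists, in grey, with the list's median as a diamond and the SD of the 5 BeadChip medians as whiskers. Osteocyte, Wnt and histone medians lie left of 0 (-0.45, -0.31 and -0.50) and the skeletal muscle median lies right of 0 (0.45) with the widest whiskers (1.12).

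Of the 19 listed estrogen-responsive genes, 12 were measured and 7 lay below 0, with a median of -0.02. Stc2, a stanniocalcin and a known ERα target in human breast cancer cells, had 7.54, 8.40, 7.95, 6.95 and 8.97 in KO E2 shafts and 7.99, 8.83, 9.10, 8.73 and 10.003 in WT E2 shafts. The KO array was lower on each BeadChip, with a difference of -0.97 ± 0.45 that was not called. Greb1, an ERα target and cofactor, was detected on 0 KO E2 and 3 WT E2 arrays, at 6.22, 5.77, 5.37, 6.07 and 5.68 in KO E2 shafts and 6.78, 6.22, 5.21, 6.72 and 7.04 in WT E2 shafts, and did not pass the filter. The progesterone receptor gene Pgr and the second estrogen receptor gene Esr2 were detected on 0 of the 10 arrays. Nuclear receptors and coregulators lay below 0 in 5 of 13 cases, with a median of 0.05.

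Metabolic and stress lists follow. Of 27 subunits of oxidative phosphorylation 20 lay above 0, with a median of 0.09. In fatty acid and cholesterol synthesis 13 of 15 lay below 0, with a median of -0.13, and the elongase Elovl6 had -0.65 ± 0.25. Glucocorticoid-responsive genes lay above 0 in 12 of 14 cases (median 0.13), interferon-response genes in 12 of 16 (0.18), heat shock and chaperone genes in 8 of 19 (-0.02), immediate early genes in 6 of 16 (-0.15), with the AP-1 component Jund at -0.59 ± 0.26, and genes of apoptosis and the p53 response in 8 of 22 (-0.03).

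Skeletal muscle markers varied with single arrays. All 29 measured markers lay above 0, with a median of 0.45, as all 29 did under vehicle, with a median of 0.34, and the myosin light chain Myl1 was the 1 member with an unadjusted p under 0.05 (0.34 ± 0.16). On the log2 scale their summed level was 19.04, 18.45, 18.21, 18.05 and 18.86 in KO E2 shafts and 18.83, 18.70, 18.69, 16.98 and 17.30 in WT E2 shafts, so the WT E2 arrays of BeadChips 4 and 5 were low. Acta1, skeletal actin, was between 14.76 and 14.91 in KO E2 shafts and between 14.13 and 15.03 in WT E2 shafts, and the calcium buffer Pvalb was between 14.48 and 15.01 in KO E2 shafts and between 13.26 and 15.08 in WT E2 shafts. Without those 2 WT E2 arrays, left out after seeing the data, the muscle median was -0.29. This fit kept the probes chosen with all cortical arrays, the 2 left out included. Plppr5 and Aldh1a2 were called in it, at -1.98 (limma, adjusted p = 0.000865) and -1.75 (limma, adjusted p = 0.021). Plppr5 was kept only through WT E2 arrays, and with the filter applied anew it would not be tested. Keeping Plppr5 also changes the adjustment for Aldh1a2, so these calls are no separate support. In the same fit 16 of the 17 E2 genes lay below 0, with Gdpd2 as the exception, and their median was -0.56. The osteocyte, Wnt and histone medians were -0.31, -0.33 and -0.62 there, and the clock median was 0.07. Some lists changed side there: the median was -0.28 for periosteum and fibroblast markers, -0.06 for adipocyte markers, -0.07 for oxidative phosphorylation and 0.23 for macrophage and monocyte markers. The collagen and matrix median was -0.34, and that of T and NK cell markers was -0.05. The part of muscle RNA in these values was not tested.

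**Figure D5:**
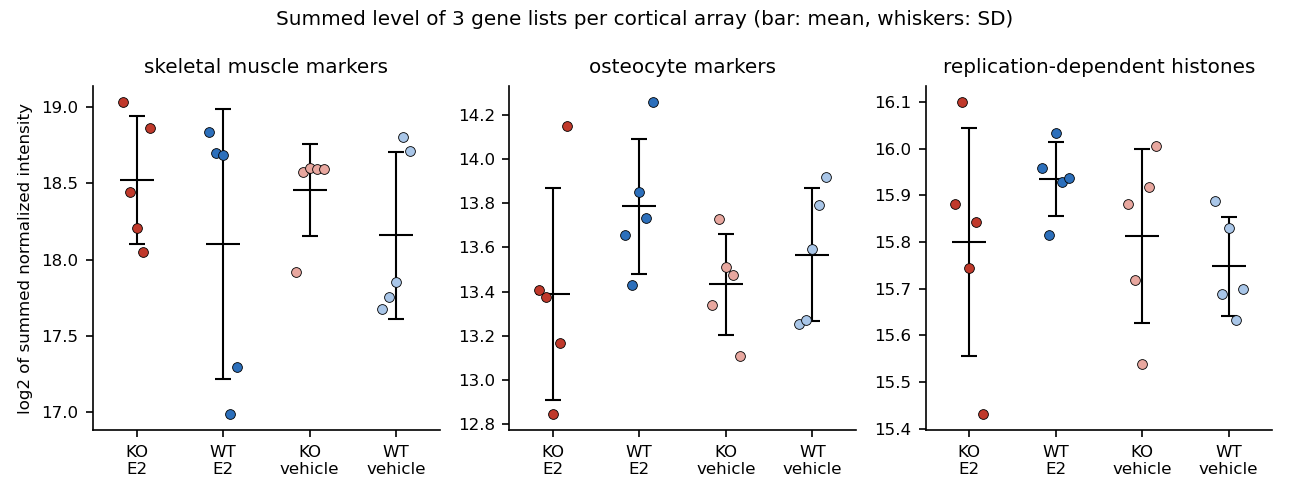
Log2 of the summed normalized intensity of skeletal muscle markers, osteocyte markers and replication-dependent histones on each cortical array, with KO E2, WT E2, KO vehicle and WT vehicle from left to right, means as bars and SD as whiskers. The muscle sum lies between 18.05 and 19.04 in KO E2 shafts and between 16.98 and 18.83 in WT E2 shafts, with 2 WT E2 arrays set below the rest.

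Markers of the other cell types of bone and marrow had no called member. Adipocyte markers lay above 0 in 7 of 10 cases (median 0.18), and the only members at an unadjusted p under 0.05 were the adipokine gene Cfd (-1.17 ± 0.46) and Cebpa, a factor of fat cell differentiation. Cebpa was detected on 3 KO E2 and 0 WT E2 arrays, too dim for a fold. Cfd had 13.69, 11.08, 11.02, 11.88 and 12.90 in KO E2 shafts and 13.48, 13.88, 13.18, 12.47 and 13.39 in WT E2 shafts. Endothelial markers lay above 0 in 8 of 15 (0.02), marrow stromal markers in 7 of 14 (0.04), with Ebf3 above and the nerve growth factor receptor gene Ngfr below (-0.63 ± 0.24, detected on 0 KO E2 and 5 WT E2 arrays), and periosteum and fibroblast markers in 10 of 13 (0.16, with the sign changed in 10 of 43 alternatives). Among blood cells, B-lineage markers lay below 0 in 9 of 11 (median -0.16), T and NK cell markers in 9 of 12 (-0.23), erythroid markers in 11 of 16 (-0.08), neutrophil markers in 6 of 18 (0.03), macrophage and monocyte markers in 8 of 14 (-0.02) and megakaryocyte and platelet markers in 10 of 12 (-0.11), the last with Thbs1 as its 1 member at an unadjusted p under 0.05. Only 4 of 18 cartilage markers were measured, 2 on each side of 0. The part of cell composition in the values above was not tested.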

How the data were processed

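Mouse bone RNA was measured on 1-colour Illumina BeadChips, 40 arrays in 8 groups of 5. The authors deposited non-normalized probe intensities with a detection p-value per probe and array, read with GenomeStudio per the submitters' processing notes. They also deposited a table of intensities after quantile normalization, used here as an alternative. Intensities were background-corrected with normexp, using the detection p-values, with an offset of 16, and quantile-normalized over 40 arrays (neqc). Probes detected at p under 0.01 on at least 5 arrays of a fit were kept, and the brightest represents its gene. The 4 cortical groups (20 arrays) were fitted with limma 3.58.1 in R 4.3.3 (lmFit, eBayes, Benjamini-Hochberg over all genes tested). The fit was tested on simulated data. The number of arrays limits the precision.

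The comparison, the genes and the 33 lists were chosen with earlier results of these data known. Named were called genes, the 10 uncalled genes with the smallest p in each direction among those detected on at least 5 of the 10 arrays, up to 3 genes of each list with the smallest p, 11 fixed bone and receptor genes, and genes called for E2 in WT bone; Lox, Sfrp1, H4c4, Npy, Mup2 and Mup6 were added after their values were seen. Replicate numbers mark a shared BeadChip. Same-numbered KO E2 and WT E2 arrays had residual correlations of 0.44, 0.01, -0.21, 0.64 and 0.35 for BeadChips 1 to 5. Values with the BeadChip as a block are given where they change a call. Alternatives varied the background correction, scaling, filter, probe summary, arrays in the fit and variance model, and left out BeadChips or arrays.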

Additional observations from a re-analysis of the deposited data

Results flagged for a closer look

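The KO minus WT difference of Plppr5 under E2 was more negative in shafts than in vertebrae, with a contrast of -1.78 (limma, adjusted p = 0.0141). In vertebrae the transcript was not well above background on any KO E2 or WT E2 array, so the vertebral difference is between dim values.

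In 10 of 162 groups of 5 arrays, 1 array stood apart from the other 4 by Dixon's criterion, where chance gives about 8.1 (1 in 20). On BeadChip 5 the KO E2 array was the highest for Whrn (10.57, next 9.47), Loxl1 (12.54, next 11.90) and Lox (12.98, next 12.24), and the lowest for Acta1 (14.76, next 14.87). The WT E2 array of BeadChip 5 was the highest for Fam78b (9.67, next 8.83) and Ciart (6.93, next 6.01). For H2bc3 the KO E2 array of BeadChip 2 was the highest (8.43, next 6.95). The WT E2 array of BeadChip 3 was the highest for Dkk1 (7.95, next 7.61) and the lowest for Tex2 (9.36, next 9.67), and that of BeadChip 4 was the lowest for Bicc1 (10.34, next 10.98).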

How the results depend on the processing

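With the BeadChip as a replicate block, 2 genes were called between KO E2 and WT E2 shafts, as without it, and the block changed no call of Plppr5 or Aldh1a2. It left 3 vertebral calls, of which only Shox2 was shared. There were 0 calls when every array had to detect a probe (neither gene tested) and 0 without replicate 1 and with the replicate block, 1 with the compared groups alone (Plppr5), 5 with all 40 arrays (with Ambp, Lgi2 and Shox2) and 6 with array quality weights (with Fam78b, Lgi2, Mup2 and Mup6). Leaving out 1 BeadChip gave 0 to 1 calls, and leaving out 1 array gave 1 to 3. Aldh1a2 ranged from -2.49 to -0.95 and was called in 37 of 42 alternatives. Plppr5 ranged from -2.28 to -0.85 and was called in the 31 that tested it. However, Plppr5 passes the filter only through the 5 WT E2 arrays and was not tested in the other 12. Both counts include the fits that kept the probes of all 20 arrays after the data were seen, so they do not measure how firm the calls are. The medians of 24 of the 33 lists changed sign in at least 1 of 43 alternatives. Those of 9 did not, the osteocyte, Wnt and histone lists among them. The osteocyte and Wnt lists share members such as Sost and Dkk1, so these 2 medians are not separate. With only probes that every array detected, 10 of the 17 vertebral E2 genes were tested, and all 10 lay below 0 in KO E2 shafts. The test of E2 against vehicle called 1 gene with all 40 arrays (Plppr5), 1 with array quality weights (Cartpt) and 0 to 1 without 1 BeadChip. Vertebral calls were 1 at an adjusted p under 0.01, 11 without background correction, 11 with the authors' values, 6 with no filter, 10 without replicate 1 and with the replicate block, 8 with all 40 arrays, 1 with the compared groups alone, 23 with array quality weights and 0 to 11 without 1 BeadChip. The bone difference had 0 calls at an adjusted p under 0.01, without background correction, with the authors' values, median scaling, probes detected on all arrays, the compared groups alone, the trend and robust variance, or without 1 BeadChip (with or without the block), and 3 with array quality weights (Mup6, Plppr5 and Shox2). The causes were not tested. Uncalled differences near 0 changed sign. Tnfsf11 was 0.00589 without background correction and 0.00599 with the authors' values, and Bglap1 was -0.0588 with the mean of its probes. With the probes of all 20 arrays, Tnfsf11 was 0.0479, 0.137 and 0.0642 without BeadChips 2, 3 and 4, 0.092 and 0.151 without the KO E2 arrays of BeadChips 3 and 4, and 0.0123, 0.109 and 0.0172 without the WT E2 arrays of BeadChips 1, 2 and 3. Esr1 was 0.00898 without BeadChip 3, 0.0199 and 0.0174 without the KO E2 arrays of BeadChips 1 and 3, 0.0121 without the WT E2 array of BeadChip 5, and 0.0136 without the 2 WT E2 arrays of low muscle signal, where Gdpd2 was 0.119. With the filter applied anew, leaving out BeadChips or arrays gave -0.104 to 0.0199 for Esr1 and -0.287 to 0.151 for Tnfsf11. Dim probes set the limit: where all arrays of a group were not well above background, a fold is a bound.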

Other observations

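Some transcripts of other tissues stood out after their values were seen, and none was called. Npy, the neuropeptide Y precursor, had levels of 9.87, 9.76, 9.96, 5.77 and 7.35 in KO E2 shafts, where 4 arrays detected it, and 5.43, 5.72, 6.09, 5.68 and 5.92 in WT E2 shafts, where none did. The groups overlapped through the KO array of BeadChip 4, and the difference was 2.77 ± 0.96 (limma, adjusted p = 1.00), and 1.46 without background correction. Under vehicle the difference was 0.25.

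Major urinary protein genes, known from liver, lay on the other side. Mup2 had 9.9999, 5.72, 5.08, 6.22 and 7.77 in KO E2 shafts and 10.22, 11.48, 9.08, 7.20 and 7.85 in WT E2 shafts, a difference of -2.21 ± 0.91 (limma, adjusted p = 1.00), and under vehicle it was -2.05. For Mup6 the differences were -1.74 ± 0.62 under E2 and -1.35 under vehicle. These genes are near-identical copies, and their probes may share signal.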
